A study of Homo sapiens with 16 samples.

Results

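REV1 and 7 other genes of translesion DNA synthesis were followed across RISC-trap pulldowns of 7 microRNAs (miRNAs). The set held REV1, REV3L, MAD2L2, POLH, POLI, POLK, RAD18 and PCNA, 8 of the 19077 entries of the deposited count table, and all 8 were found by symbol. REV1 was chosen by its recovery with mir1271-5p in these libraries, and the other members were added as genes of the same pathway with that result known. The comparison of mir1271-5p with the other miRNAs is therefore given as a description, with no test for any member.

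All 16 libraries came from HEK 293 cells, an established human line of embryonic kidney origin, and each held RNA recovered with 1 miRNA. In RISC-trap a dominant-negative form of GW182 keeps targeted mRNAs on the RNA-induced silencing complex, which is then immunoprecipitated. There were 2 libraries each for mir1271-5p, mir550-3p, mir1180-3p, mir3613-5p, mir1260a-5p and mir1301-3p, 1 for mir124-3p titled as Solid, and 3 for mir124-3p titled as Illumina. No library without a miRNA is named in the labels, so every value is relative to the other pulldowns, and recovery with the complex is not the level of an mRNA in the cell.

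Translesion synthesis lets a cell copy past a damaged base that stops the replicative polymerases. RAD18, an E3 ubiquitin ligase, tags the sliding clamp PCNA, and polymerases of the Y family (POLH, POLI, POLK and REV1) then bind the clamp and insert a base across from the lesion. REV1 also serves as the scaffold that brings in polymerase zeta to extend from there. The catalytic subunit of polymerase zeta is REV3L, and its accessory subunits include MAD2L2 (REV7). A miRNA pairs with its target mRNAs mostly through its seed, bases 2 to 8.

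The mature sequences of the pulled-down miRNAs, from RefSeq on GRCh38.p14, are shown because each library was made with 1 of these molecules, which the labels give as the difference between groups apart from the platform of the mir124-3p libraries. The capitals mark the seed, and sequences run 5′ to 3′ as RNA. Of the 7 miRNAs 6 were matched; mir124-3p is named only. The entry for mir550-3p is that of MIR550A3, since the column names call this miRNA 550a, and the entry for mir1260a-5p carries no arm.
hsa-miR-1271-5p: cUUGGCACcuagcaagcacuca
hsa-miR-1180-3p: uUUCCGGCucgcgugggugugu
hsa-miR-1260a: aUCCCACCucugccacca
hsa-miR-1301-3p: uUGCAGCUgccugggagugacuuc
hsa-miR-3613-5p: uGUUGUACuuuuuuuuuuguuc
hsa-miR-550a-3p: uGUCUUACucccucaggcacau
hsa-miR-96-5p: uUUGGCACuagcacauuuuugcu

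The seed of miR-1271-5p, encoded at chr5:176367960-176367981 on the plus strand, is also that of miR-96-5p, which was not pulled down here and is shown for that reason. A perfect match to this seed in an mRNA would read GUGCCAA. No other pulled-down miRNA in the list shared its seed with another. Transcript sequences were not used here, so no member was searched for seed matches.

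Total counts per library lay between 7612758 and 26527365, and the replicates of each of the 6 miRNAs with 2 libraries differed by far more than counting error (chi-square per degree of freedom between 36.7 and 84.8). The column names of both mir550-3p libraries and of replicate 2 of mir1301-3p hold the mark bio, which is not explained. The labels do not otherwise say whether replicates were separate cultures. The p-values thus measure the spread between these libraries, which may be technical. Of 7 genes typical of HEK 293, VIM, NEFL, NEFM and LIN28B passed 10 CPM (read counts scaled to a common library size) in all 16 libraries, KRT8 lay at 7.73 CPM or less, and KRT18 and INA lay on both sides of 10 CPM. The summed CPM of 6 fibroblast markers was 59.1 and 149.6 in the mir1301-3p libraries and between 10.5 and 25.5 in the other 10 libraries of the 6 miRNAs. Markers of blood, of neurons and glia, and of liver summed to 12, 22 and 6.93 CPM at most.

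REV1 was recovered about 3 times as strongly with mir1271-5p as with the other miRNAs that had 2 libraries. Its normalised level was 162 and 186 CPM in the mir1271-5p libraries. It was 73.7 and 78.7 CPM with mir550-3p, 70.4 and 54.8 with mir1260a-5p, 59.9 and 57.9 with mir3613-5p, 43.8 and 54.6 with mir1180-3p, and 51.8 and 41.0 with mir1301-3p. Both mir1271-5p libraries stood above all 10 others, and the lower of them was 2.06 times the highest of these. The mean was 174 CPM ± 16.7 (SD, n = 2) against 58.6 CPM ± 12.4 (SD, n = 10), a ratio of 2.97, and the counts behind the mir1271-5p values were 2669 and 1608 reads. The fitted log2 fold change was 1.64 ± 0.23 (SE). It exceeded that of 99.4% of the 17658 genes tested.

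Of the members only REV1 was called higher with mir1271-5p, where 0.606% of all genes were called higher, and only REV1 lay above all reference libraries, as 1.82% of genes did. Called means a Benjamini-Hochberg adjusted p under 0.05 in edgeR's quasi-likelihood test over all genes, with each miRNA set against the mean of the other 5. Nothing is read from these counts here, since this comparison chose the gene. With either mir1271-5p library left out, the log2 fold change of REV1 was 1.59 or 1.71.

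**Figure D1:**
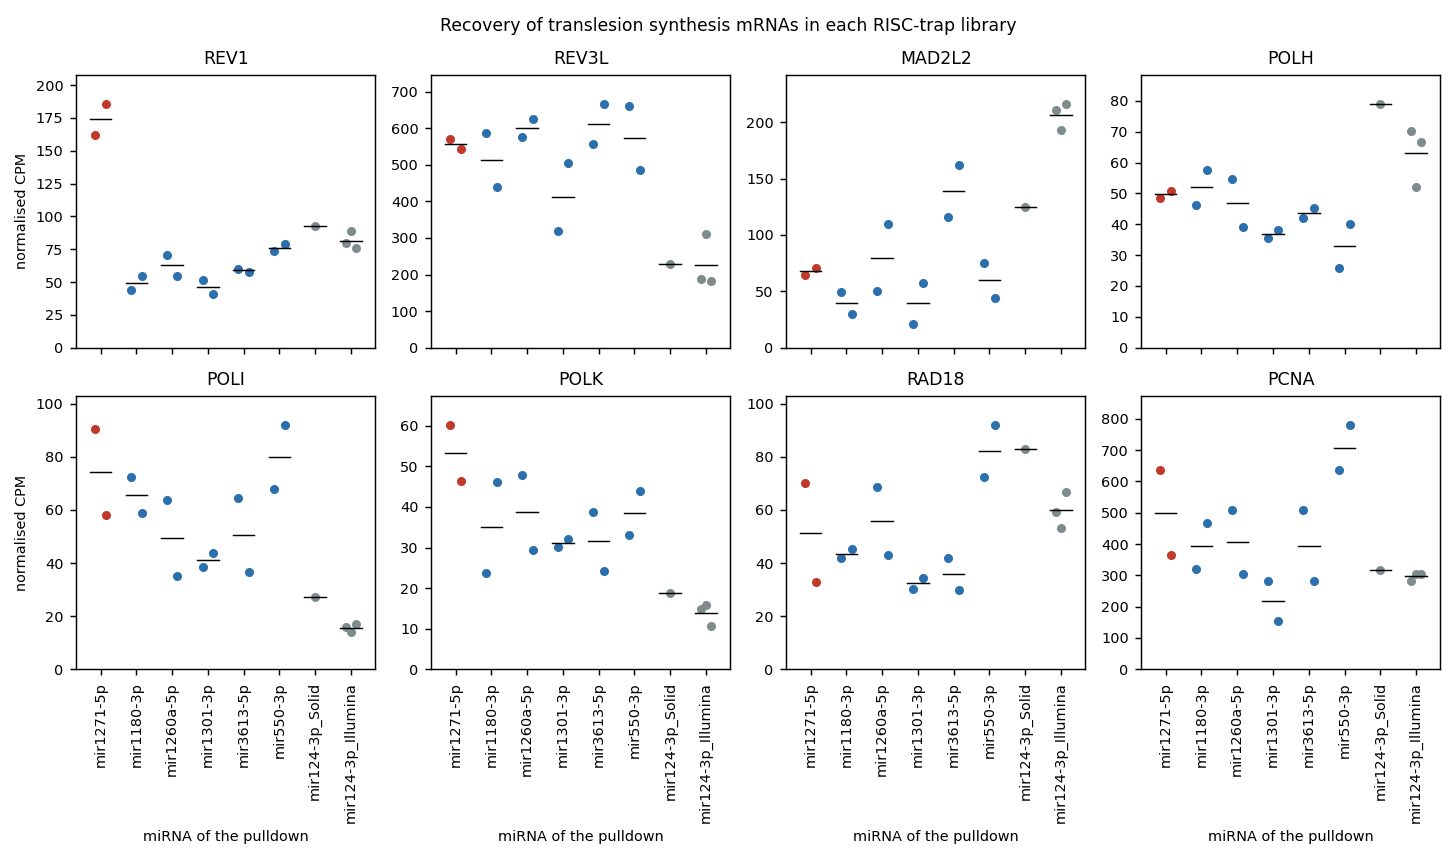
Normalised CPM (y axis, linear, from 0) of each of the 8 members in every library, by the miRNA of the pulldown (x axis); points are libraries, bars are group means, with mir1271-5p in red, mir124-3p in grey and the other miRNAs in blue. REV1 stands at 162 and 186 CPM with mir1271-5p and at 92.7 or less elsewhere, while POLI and POLK are lowest in the 4 mir124-3p libraries.

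Over the 10 libraries of the 6 miRNAs outside mir1271-5p, the coefficient of variation of REV1 was 21.1%. Of 11466 genes with a mean of at least 5 CPM, 8.02% had a smaller one, and the median was 35.2%. The mir1271-5p libraries, which chose REV1, are left out here, while other genes kept any peak of their own. Nothing is thus read from this share. REV3L (19.9%) and POLH (21.6%) had similar values, and the other members lay between 25.1% and 62.1%. The mir124-3p libraries gave 92.7 CPM (Solid) and 79.5, 88.5 and 75.7 CPM (Illumina). In order of group means REV1 was highest with mir1271-5p, then mir124-3p_Solid, mir124-3p_Illumina, mir550-3p, mir1260a-5p, mir3613-5p, mir1180-3p and mir1301-3p. Of neighbours in that order, the libraries of mir124-3p_Illumina and mir550-3p overlapped, as did those of mir1260a-5p and mir3613-5p, and those of mir1180-3p and mir1301-3p.

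In the mir1180-3p and mir1301-3p comparisons the REV1 log2 fold change was -0.71 ± 0.27 (edgeR adjusted p = 0.249) and -0.69 ± 0.27 (adjusted p = 0.0847). Neither passed the test with edgeR. With DESeq2 REV1 was called lower with mir1301-3p, at -0.71 with an adjusted p of 0.0419. The mir1271-5p libraries are part of both references, and with them left out the values were -0.40 and -0.37 (edgeR adjusted p = 0.597 and 0.335). In the remaining 3 miRNA comparisons REV1 lay between -0.19 and 0.12.

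The 5 mRNAs most like REV1 over the 12 libraries, by Pearson correlation of log2 CPM among 11465 other genes, were BPNT1 (r = 0.95), KDELR2 (0.94), IMMT (0.94), HSPBAP1 (0.93) and CHMP4A (0.93). BPNT1, a phosphatase of nucleotide and inositol phosphate metabolism, had a mean of 264 CPM with mir1271-5p and 21.8 CPM in the other 10 libraries. KDELR2, a receptor that returns proteins to the endoplasmic reticulum, had 553.5 and 158 CPM. IMMT, a scaffold of the mitochondrial inner membrane, had 245 and 82.3 CPM.

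All 5 of these mRNAs had their highest group mean of the 6 miRNAs in the mir1271-5p libraries, which carry much of each correlation. Over the 10 libraries outside mir1271-5p the correlations with REV1 were 0.69 for BPNT1, 0.72 for KDELR2, 0.81 for IMMT, 0.74 for HSPBAP1 and 0.74 for CHMP4A. The 5 mRNAs were picked over the 12 libraries, which include these 10, and no share of all genes was computed over the 10. The libraries share a normalisation and come in pairs from 1 miRNA, so these values describe likeness and carry no p.

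**Figure D2:**
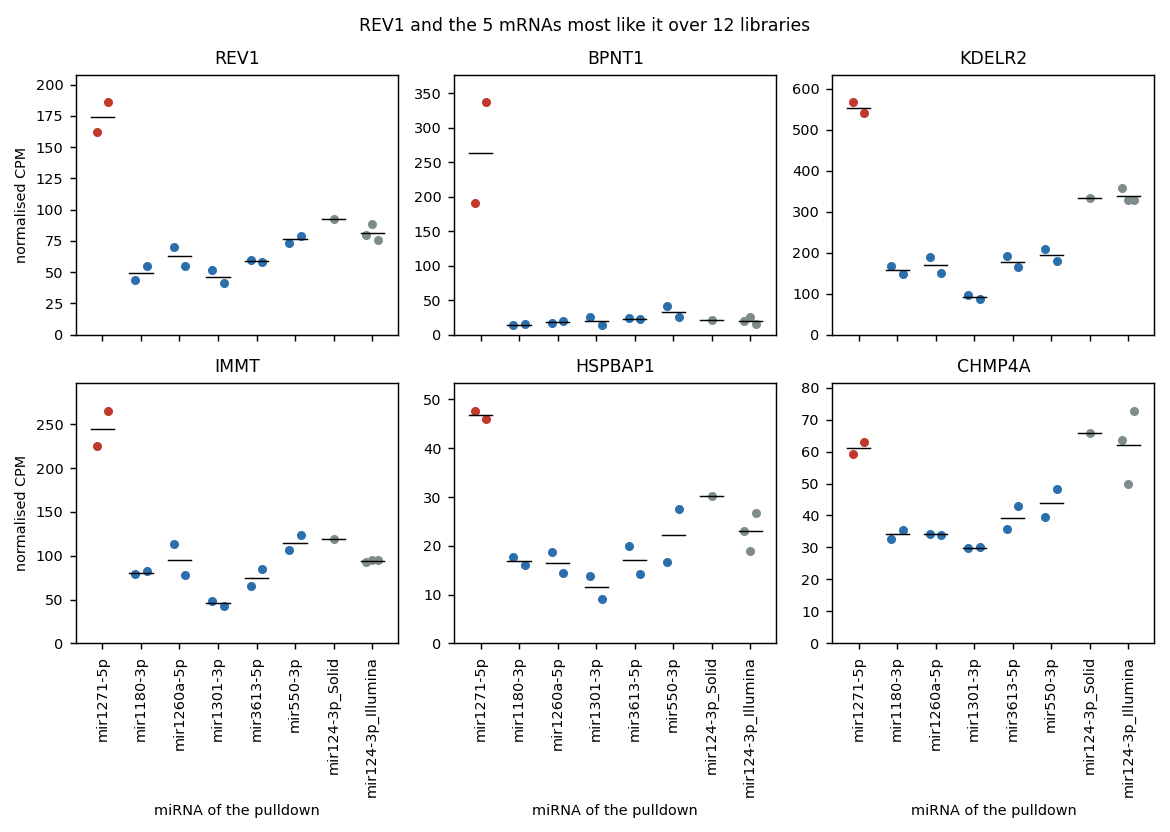
Normalised CPM (y axis, linear, from 0) of REV1 and of the 5 mRNAs most like it, in every library by miRNA (x axis); points are libraries and bars are group means. Each panel peaks with mir1271-5p among the 6 miRNAs with 2 libraries, and CHMP4A is about as high in the mir124-3p libraries.

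REV3L and MAD2L2, the members that belong to polymerase zeta, did not share the peak of REV1. REV3L, the catalytic subunit, gave 570.3 and 543 CPM with mir1271-5p, inside the range of the other 10 libraries (319 to 667 CPM). Its log2 fold change with mir1271-5p was 0.10 ± 0.28. MAD2L2, an accessory subunit, gave 64.7 and 70.5 CPM with mir1271-5p, also inside the range of the others (21.2 to 162 CPM). The log2 fold change of MAD2L2 with mir1271-5p was 0.13 ± 0.39.

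MAD2L2 was highest with mir3613-5p among the 6 miRNAs. Its level was 116 and 162 CPM in the mir3613-5p libraries and 109 CPM in the next highest library, replicate 2 of mir1260a-5p. The other values were 50.2 CPM in replicate 1 of mir1260a-5p, 75.1 and 44.5 with mir550-3p, 49.0 and 29.8 with mir1180-3p, and 21.2 and 57.7 with mir1301-3p. The mir3613-5p libraries lay above all 10 others, as 2.08% of all genes did in this comparison.

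The log2 fold change of MAD2L2 with mir3613-5p was 1.42 ± 0.35, or 2.67-fold, with an adjusted p of 0.165 in edgeR and of 0.0465 in DESeq2. It was not called by edgeR. Of all genes 0.0906% were called by edgeR and 0.765% by DESeq2 in this comparison. Without replicate 2 of mir1301-3p the value was 1.62 and the edgeR adjusted p 0.0407. Replicates of MAD2L2 lay far apart in most groups, and its coefficient of variation over the 10 libraries outside mir1271-5p was 62.1%, larger than that of 93.0% of genes.

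REV3L and MAD2L2 tended to be high and low in the same libraries. Their Pearson correlation over the 12 libraries of the 6 miRNAs was 0.83 (Spearman 0.73), and 0.84 over the 10 libraries without mir1271-5p. Of 11465 genes 1.22% had a higher correlation with REV3L than MAD2L2 had. REV1 had correlations of 0.16 with REV3L and 0.12 with MAD2L2. This was 1 of 28 pairs of members computed, the points are libraries that share a normalisation and come in pairs from 1 miRNA, and no p is given.

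The Y-family polymerases other than REV1 showed no call with any of the 6 miRNAs. POLH, which copies past ultraviolet-induced thymine dimers, lay at 48.7 and 50.8 CPM with mir1271-5p and between 25.8 and 57.5 CPM in the other 10 libraries. Its log2 fold change with mir1271-5p was 0.30 ± 0.27, and its values in the other 5 comparisons lay between -0.52 and 0.21. POLH was among the steadier members, with a coefficient of variation of 21.6%.

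POLK, which bypasses bulky adducts, gave 60.1 and 46.3 CPM with mir1271-5p. It gave 48.0 and 29.5 CPM with mir1260a-5p, 33.1 and 43.9 with mir550-3p, 23.8 and 46.1 with mir1180-3p, 38.9 and 24.3 with mir3613-5p, and 30.2 and 32.0 with mir1301-3p. Its mir1271-5p mean was the highest of the 6 miRNAs but the lower mir1271-5p library lay under the highest other library. The log2 fold change with mir1271-5p, 0.67 ± 0.31, was the second largest among members, above that of 92.4% of genes.

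POLI, a low-fidelity polymerase, gave 90.5 and 58.1 CPM with mir1271-5p and between 35.3 and 91.8 CPM in the other 10 libraries, with the top value in replicate 2 of mir550-3p. Its log2 fold change with mir1271-5p was 0.48 ± 0.31. With mir550-3p it was 0.49 ± 0.31, with an edgeR adjusted p of 0.448.

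All 8 members had positive log2 fold changes with mir1271-5p, with a median of 0.35 against 0.05 for all genes. This comparison chose REV1, and the values of RAD18, PCNA and POLI rested on replicate 1. Without that library they were -0.51, -0.10 and 0.08, and without replicate 2 they were 0.67, 0.78 and 0.79. With upper-quartile scaling, which moved the median of all genes by -0.24, 5 members were positive, and all 8 still lay above the median of all genes.

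**Figure D3:**
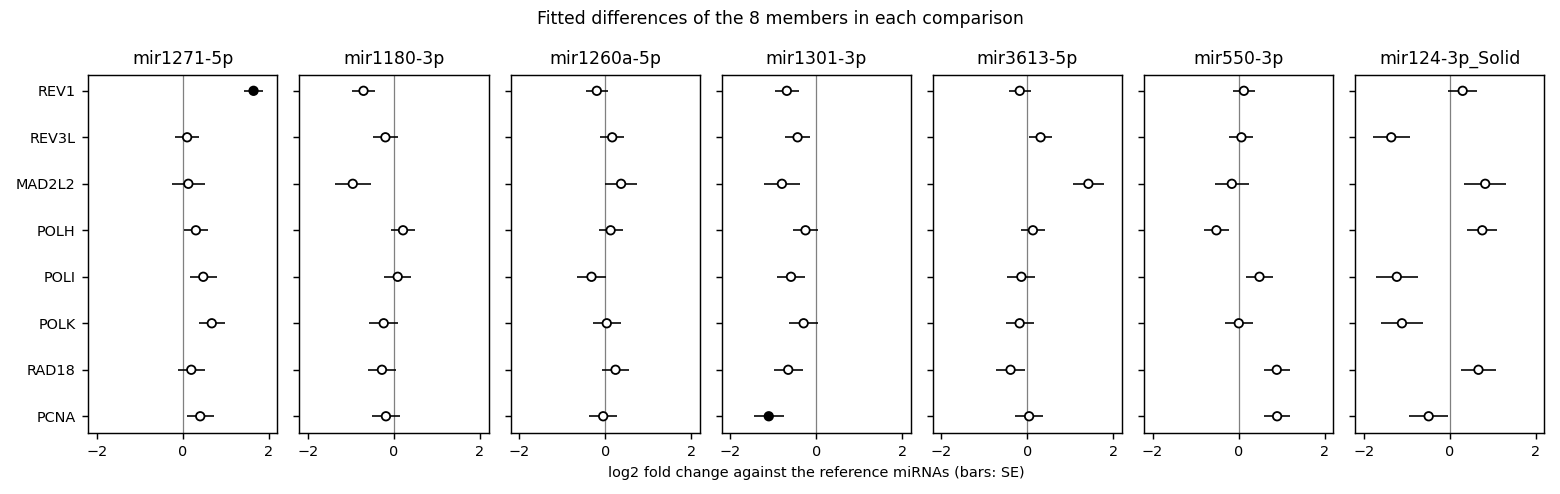
Fitted log2 fold change (x axis) of each member (y axis) for each of the 6 miRNAs against the mean of the other 5, and for mir124-3p_Solid against the mean of the 6; bars are SE and filled points were called by edgeR. REV1 with mir1271-5p (1.64, a description) and PCNA with mir1301-3p (-1.11) are the filled points.

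RAD18 and PCNA, the ligase and the clamp on which translesion synthesis starts, were both highest with mir550-3p among the 6 miRNAs. RAD18 gave 72.5 and 91.8 CPM with mir550-3p. It gave 70.3 and 32.7 CPM with mir1271-5p, 68.7 and 43.1 with mir1260a-5p, 41.8 and 45.2 with mir1180-3p, 42.0 and 29.8 with mir3613-5p, and 30.3 and 34.5 with mir1301-3p. The mir550-3p libraries lay above all 10 others, though by little over the higher library of mir1271-5p.

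PCNA gave 637 and 779 CPM with mir550-3p. It gave 636 and 364 CPM with mir1271-5p, 508 and 305 with mir1260a-5p, 508 and 281 with mir3613-5p, 321 and 469 with mir1180-3p, and 282 and 153 with mir1301-3p. Here too the mir550-3p libraries were above all others, the lower of them level with replicate 1 of mir1271-5p. With mir1301-3p, replicate 2 was the lowest of the 12 libraries and replicate 1 was level with replicate 2 of mir3613-5p.

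Both members thus lay above all reference libraries with mir550-3p, as 5.19% of genes did. The log2 fold changes were 0.89 ± 0.30 for RAD18 (adjusted p = 0.153) and 0.90 ± 0.30 for PCNA (adjusted p = 0.15) in edgeR, and neither was called. Without replicate 1 of mir1271-5p the value of RAD18 was 1.03 with an adjusted p of 0.0453.

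PCNA was the 1 member called by edgeR in a comparison that did not choose the members. It fell with mir1301-3p, to a mean of 218 CPM ± 91.1 (SD, n = 2) from 481 CPM in the other 10 libraries, and its fitted log2 difference was -1.11 ± 0.35 with an edgeR adjusted p of 0.0429. In this comparison 4.39% of all genes were called lower, or 776 genes, against 6 and 48 genes without replicate 1 and 2 of mir1301-3p. The value lay under the threshold by little, and 10 of the 17 alternatives moved it past: the adjusted p was 0.123 with upper-quartile scaling (log2 fold change -0.68), 0.058 with mir1271-5p left out of the reference, and between 0.0527 and 0.316 with any 1 of 8 libraries left out. These were both libraries of mir1301-3p, of mir1180-3p and of mir550-3p, and replicate 1 of mir1260a-5p and of mir3613-5p. Without replicate 1 of mir1301-3p the log2 fold change was -1.53, and without replicate 2 it was -0.79.

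All 8 members had negative log2 fold changes with mir1301-3p, with a median of -0.62 against -0.02 for all genes, and REV1 and PCNA had unadjusted p-values under 0.05. Among all genes 36.5% had such a p in this comparison, so 2 of 8 members is no more than the background. With DESeq2, which called 17.0% of all genes, REV1 and PCNA were called. The mir1271-5p libraries that chose REV1 are in this reference too, and without them its edgeR log2 fold change was -0.37. Upper-quartile scaling moved the median of all genes by 0.40 in this comparison. POLH (0.14) and POLK (0.10) then turned positive, and all 8 members stayed below the median of all genes. Of the fibroblast markers 5 of 6 lay above all other 10 libraries, and none of the 6 was at 0 in a mir1301-3p library. Their part in these values was not tested.

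Levels of PCNA, RAD18, POLI and POLK moved together between the replicates of 4 of the 6 miRNAs. These genes were grouped after their values were seen, and the share of all genes with this pattern was not computed. With mir1271-5p, mir1260a-5p and mir3613-5p all 4 were higher in replicate 1 than in replicate 2, and with mir550-3p all 4 were higher in replicate 2. With mir1180-3p POLI was lower in replicate 2 and the other 3 were higher, and with mir1301-3p PCNA was lower in replicate 2 and the other 3 were higher. RAD18 and PCNA had a Pearson correlation of 0.82 over the 12 libraries (Spearman 0.88), and 1.99% of genes had a higher correlation with RAD18. The correlation of POLI was 0.78 with PCNA and 0.77 with RAD18. POLK was less close, at 0.61 with PCNA, 0.61 with POLI and 0.54 with RAD18. These are among the 28 pairs of members computed, over libraries that share a normalisation, and no p is given. REV1 had a correlation of 0.49 with PCNA over all 12 libraries, and 13.9% of genes had a higher one with REV1. Over the 10 without mir1271-5p it was 0.88, where the other members lay between -0.16 (POLH) and 0.79 (RAD18). No share of all genes was computed over those 10. As each library pools many cells, fewer cells that yield an mRNA and less of it per cell cannot be told apart.

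No member was called in the other tested comparisons of the 6 miRNAs. With mir1180-3p, where edgeR called 2.07% of all genes, the unadjusted p was under 0.05 for REV1 and MAD2L2 (2 of 8 members, against 13.7% of genes). The p of REV1 depends on the mir1271-5p libraries that chose it, as they are in this reference. Without them its log2 fold change with mir1180-3p was -0.40. MAD2L2 had a log2 fold change of -0.96 ± 0.42 and an adjusted p of 0.326 there. With mir1260a-5p, where 0.215% of genes were called and 5.33% had an unadjusted p under 0.05, the count was 0 of 8 members. It was 1 of 8 with mir3613-5p (MAD2L2, against 14.1% of genes) and 2 of 8 with mir550-3p (RAD18 and PCNA, against 16.4%, with 1.51% called). DESeq2 called 0 members with mir1180-3p, mir1260a-5p and mir550-3p. Every miRNA is in the reference of the others, so these comparisons share libraries and are given side by side.

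The mir124-3p libraries parted the members. REV3L, POLI and POLK were lower in all 4 mir124-3p libraries than in every one of the 12 others, as 8.08% of genes were. REV3L gave 229.7 CPM in the Solid library and 189, 309.8 and 182 CPM in the Illumina libraries, against 319 to 667 CPM in the 12. POLI gave 27.1 CPM and 16, 14.2 and 17.0 CPM, against 35.3 to 91.8 CPM. POLK gave 18.8 CPM and 14.9, 15.9 and 10.8 CPM, against 23.8 to 60.1 CPM. For REV3L the gap was narrow, since Illumina replicate 2 lay just under the lowest of the 12.

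MAD2L2 and POLH were on the high side with mir124-3p. MAD2L2 gave 124.5 CPM in the Solid library, inside the range of the 12, and 211, 193 and 216 CPM in the Illumina libraries, above it. POLH gave 79.0 CPM in the Solid library and 70.3, 52.2 and 66.7 CPM in the Illumina libraries, of which replicate 2 lay inside the range of the 12. RAD18 gave 82.8 CPM in the Solid library and 59.4, 53.3 and 66.9 CPM in the Illumina libraries, and PCNA gave 318 CPM and 283, 305 and 305.5 CPM, both within the range of the 12.

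Against the mean of the 6 miRNAs, no member was called in the mir124-3p_Solid library by edgeR, which called 8.89% of all genes. The largest difference was that of REV3L, at -1.36 ± 0.43 with an adjusted p of 0.0541. POLI had -1.23 ± 0.49 (adjusted p = 0.127), POLK -1.11 ± 0.49 (0.17) and POLH 0.76 ± 0.35 (0.193). These 4 of 8 members had an unadjusted p under 0.05, against 24.1% of genes. DESeq2, which called 14.7% of genes, called REV3L (-1.30, adjusted p = 0.00738) and POLI (-1.17, adjusted p = 0.0467). REV3L was also called by edgeR with upper-quartile scaling, with mir1301-3p left out of the reference, and without replicate 2 of mir1271-5p or replicate 1 of mir1301-3p (adjusted p between 0.0251 and 0.0493).

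The Solid library was below all 12 others for REV3L, POLI and POLK and above them for POLH, with backgrounds of 11.0% and 21.0% of genes. This is 1 library, assumed to vary like the other groups, and the miRNA and that library cannot be told apart. Between the Illumina and Solid libraries of mir124-3p no member was called, while edgeR called 21.9% of all genes; 0 members and 28.9% of genes had an unadjusted p under 0.05, and DESeq2 called 0 members. The members' log2 fold changes lay between -0.78 (POLI) and 0.74 (MAD2L2). Platform and library cannot be told apart there.

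Some genes of the replication fork fell beside PCNA in the mir1301-3p comparison. The list of replicative polymerases and the clamp loader held 17 genes, all tested; 5 fell and 0 rose, where 4.39% of all genes were called lower. All 17 values were negative, and their median was -0.73 against -0.02 for all genes. POLE2, a subunit of polymerase epsilon, had a log2 fold change of -1.50 (adjusted p = 0.031), RFC4, a subunit of the loader that places PCNA on DNA, -1.04 (0.0344), and POLD1, the catalytic subunit of polymerase delta, -1.22 (0.0373), all by edgeR. The others that fell, named after their values were seen, were POLE4 and PRIM2.

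RFC4 gave 209 and 152 CPM with mir1301-3p and between 202 and 742 CPM in the other 10 libraries, so the groups overlapped slightly. POLE2 gave 41.4 and 29.4 CPM, below all other 10 (55.4 CPM or more). With upper-quartile scaling 1 of the 17 was called (POLE2) and 15 were negative. Leaving out single libraries gave counts of 0 and 1 (replicates 1 and 2 of mir1301-3p), 1 (replicate 1 of mir550-3p and of mir1180-3p), 2 and 8 (replicates 1 and 2 of mir3613-5p), 3 (replicate 2 of mir550-3p) and 9 (replicate 2 of mir1271-5p). The summed fibroblast markers of these libraries are given above.

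In the same comparison 3 of 20 genes of crosslink repair and homologous recombination fell and 0 rose, against 4.39% of all genes called lower, with a median of -0.54. Among them were FANCI (-1.11, edgeR adjusted p = 0.023), which is ubiquitinated with FANCD2 at crosslinks, and FANCM (-1.01, 0.034), a DNA translocase. Of 7 other repair polymerases 1 fell, against the same background, POLQ (-0.99, 0.0384), the polymerase of end joining by short homologies. None of the 3 named genes was called when either mir1301-3p library was left out. FANCM and POLQ were also not called without replicate 1 of mir3613-5p or of mir550-3p, and POLQ not with mir550-3p replicate 2 or mir1180-3p replicate 1 left out. With upper-quartile scaling FANCI stayed called, FANCM and POLQ did not, and FANCC, UBE2T and DNTT were called with positive values. With mir1271-5p left out of the reference FANCM was not called. Of 17 genes of PCNA ubiquitination and template switching, 0 were called by edgeR. An unadjusted edgeR p under 0.05 was found for 4 of the 17, against 36.5% of all genes. DESeq2 called 1 of the 17, against 17.0% of all genes.

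**Figure D4:**
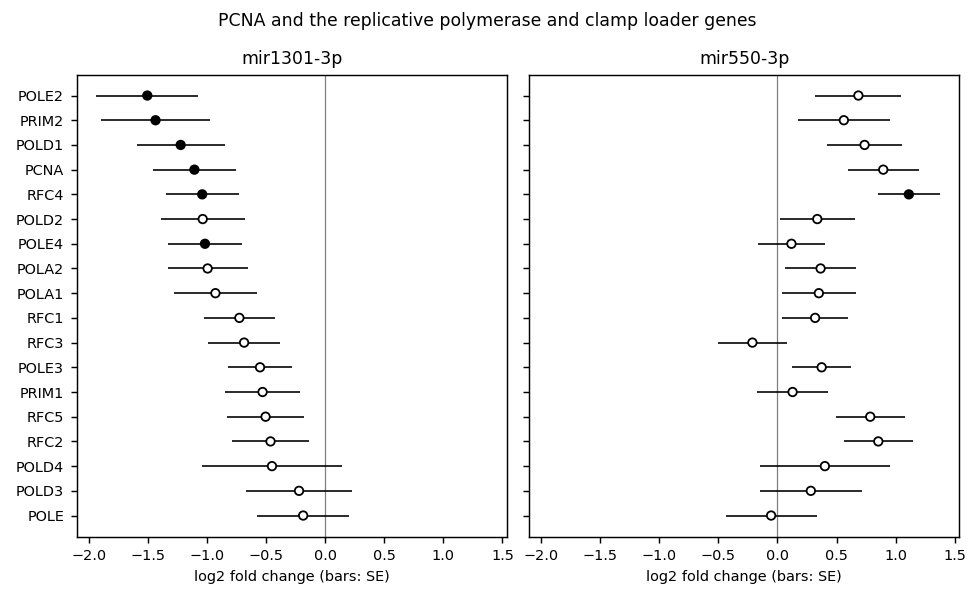
Fitted log2 fold change (x axis) of PCNA and of the 17 replicative polymerase and clamp loader genes (y axis, ordered by the mir1301-3p value) with mir1301-3p and with mir550-3p, each against the mean of the other 5 miRNAs; bars are SE and filled points were called by edgeR. All 18 values are negative with mir1301-3p, where PCNA lies at -1.11, and RFC4 (1.11) is the 1 filled point with mir550-3p.

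With mir550-3p, where PCNA and RAD18 were highest among the 6 miRNAs, RFC4 rose (547 and 742 CPM, log2 fold change 1.11, edgeR adjusted p = 0.0425) as 1 of 17 genes of its list. Its 2 mir550-3p libraries lay above the other 10. The median of this list was 0.37 against -0.05 for all genes. Of the 20 crosslink genes 1 rose, where 1.51% of all genes were called in either direction, with a list median of 0.19, and 0 genes of the other lists were called there. With upper-quartile scaling, and with mir1301-3p left out of the reference, RFC4 was not called. RFC4 was also not called without either library of mir1180-3p, mir1301-3p or mir550-3p or without replicate 2 of mir1271-5p or of mir3613-5p. The count of crosslink genes was likewise 0 with that scaling or that reference, without either library of mir3613-5p or mir550-3p, or when mir1180-3p replicate 2 or mir1301-3p replicate 1 was dropped.

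With mir1271-5p, RFC3, another subunit of the clamp loader, was the 1 list gene called. It gave 828 and 696 CPM against 238 to 439.7 CPM in the other 10 libraries, at a fitted log2 difference of 1.29 ± 0.26, and it is described without a test as it belongs to the comparison that chose REV1. No list gene was called by edgeR with mir1180-3p, mir1260a-5p or mir3613-5p. The 4 lists held 17, 17, 7 and 20 genes, all tested. Over them 11, 2 and 3 genes, in that order of miRNAs, had an unadjusted p under 0.05. Among all genes 13.7%, 5.33% and 14.1% had such a p. DESeq2 called 3, 0 and 1 list genes. Of 17658 genes it called 490 higher and 201 lower with mir1180-3p, 56 and 8 with mir1260a-5p, and 99 and 36 with mir3613-5p.

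In the mir124-3p_Solid library, where 1326 of all genes were called higher and 287 lower, 6 of the called list genes were higher and 1 lower, a split near that background. They were VCP (1.58), RFC2 (2.27), POLA2 (2.13), POLL (1.38), FANCG (1.90) and FANCC (1.59), with FANCM lower (-1.54), at edgeR adjusted p between 0.000332 and 0.037. Between the platforms UBE2V1 (1.69) and POLN (3.11) were higher in the Illumina libraries, and CCDC111 (now PRIMPOL, -1.60), POLG (-1.40), FANCL (-1.29) and FANCA (-1.23) were lower. Of all genes 21.9% were called there, and the median of all genes was -0.39. The calls were 2 of 17 genes of PCNA ubiquitination, 0 of 17 replicative, 3 of 7 other repair (DNTT among them) and 2 of 20 crosslink genes. DNTT had 0 counts in the 3 Illumina libraries and 9 in the Solid library, for which no fold is given. With single libraries left out, POLL was not called without replicate 1 of mir3613-5p or either library of mir550-3p, and FANCM not with mir550-3p replicate 1 or mir1180-3p replicate 2 left out. Without Illumina replicate 2 the platform calls of CCDC111, POLG, FANCL and FANCA were lost. POLG was also lost without either library of mir1301-3p, FANCL and FANCA without either library of mir1180-3p or mir1301-3p, and FANCA without Illumina replicate 1. POLN overlaps HAUS3, so the reads counted for POLN may belong to either gene.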

How the data were processed

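RNA recovered by RISC-trap from HEK 293 cells was sequenced in 16 libraries. The authors deposited 1 table of raw read counts per gene symbol; TopHat2 and hg19 are named in the submitters' processing notes, and library preparation with a SOLiD total RNA kit in the labels' protocols. No source used here gives the counting tool, its strand setting or versions. Columns were matched to libraries by name.

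Counts were tested with edgeR 4.0.16 (R 4.3.3): filterByExpr, trimmed mean of M values (TMM) scaling, robust quasi-likelihood tests, two-sided, Benjamini-Hochberg adjustment over all 17658 (6 miRNAs), 18135 (Solid) or 18271 (Illumina against Solid) genes. The 12 libraries of 6 miRNAs shared 1 fit, in which the reference of each miRNA was the mean over its 5 counterparts. SE is the log2 fold change divided by the square root of the F statistic. CPM values use TMM scaling over all 16 libraries, with a prior count of 2 for log2. The code was tested on simulated data.

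The members and gene lists were chosen with earlier results of these data known. All members are named. List genes are named when called, up to 3 per list and comparison by adjusted p, except for an item not reported here, with the 5 mRNAs most like REV1 by correlation among genes of at least 5 CPM. Alternatives were upper-quartile scaling, DESeq2 1.42.0, no count filter, a replicate block, either of 2 miRNAs left out of the reference, and each library left out. Whether a replicate number marks a shared batch was tested by correlating same-numbered libraries, and the numbers were not treated as pairs.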

Additional observations from a re-analysis of the deposited data

How the results depend on the processing

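The number of members called stayed the same under every alternative with mir1180-3p and mir1260a-5p and between the mir124-3p platforms. It also did with mir1271-5p, but that comparison chose REV1, so nothing is read from its count. With upper-quartile scaling 0 members were called with mir1301-3p (PCNA lost) and 1 with mir124-3p_Solid (REV3L gained). The same scaling called 1 replicative gene with mir1301-3p, 0 with mir1271-5p and 0 with mir550-3p, 0 crosslink genes with mir550-3p, 1 crosslink gene between platforms, and 0 other repair polymerases and 3 genes of PCNA ubiquitination in the Solid library. It shifted the all-gene median log2 value by 0.16 (mir1180-3p), -0.24 (mir1271-5p), 0.40 (mir1301-3p), -0.19 (mir3613-5p), -0.12 (mir550-3p), -0.18 (Solid) and 0.12 (platforms), where DESeq2 moved it by 0.33. With mir1301-3p edgeR called 2039 genes higher and 776 lower, and 4216 and 222 with upper-quartile scaling, 1338 and 1663 with DESeq2. The numbers higher and lower were 1326 and 287 in the Solid library, 997 and 664 with upper-quartile scaling, and 1820 and 839 with DESeq2. With DESeq2 they were 99 and 36 with mir3613-5p (16 and 0 by edgeR), 530 and 333 with mir550-3p (212 and 54), 490 and 201 with mir1180-3p (339 and 27), 56 and 8 with mir1260a-5p (38 and 0) and 725 and 2593 between platforms (433 and 3563). With mir550-3p upper-quartile scaling gave 137 and 55.

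DESeq2 called 2 members with mir1301-3p, 1 with mir3613-5p and 2 with Solid. Of all genes it called 17.0%, 0.765% and 14.7% in these comparisons, in that order. For mir1301-3p it called 8 replicative, 5 crosslink, 2 other repair and 1 PCNA ubiquitination genes, for Solid 7, 6, 2 and 4, for mir1180-3p 2 replicative and 1 crosslink, for mir3613-5p 1 replicative, and 0 crosslink genes between platforms. Without the count filter 2 PCNA ubiquitination genes were called with Solid. With mir1271-5p left out of the reference, 0 members and 3 replicative genes were called with mir1301-3p. With mir1301-3p left out, 1 replicative and 1 crosslink gene were called with mir1180-3p, 1 member, 2 PCNA ubiquitination and 0 other repair genes with Solid, and 0 replicative genes with mir1271-5p and mir550-3p. The cause of these changes was not tested.

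Over 15 same-numbered pairs the correlation of deviations lay between -0.30 and 0.50, over 0.1 in 6. The sign differed between pairs, so the replicate number gave no common order across groups. Some libraries did deviate alike, and pairing in another order was not tested. With the number as a replicate block, 2650 genes were called higher and 1088 lower with mir1301-3p, 8 replicative genes and 2 other repair polymerases among them, and no other count for members or lists moved by over 1.5 times.

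With 1 library left out in turn, the members called numbered 0 to 1 for mir1301-3p, mir3613-5p, mir550-3p and Solid. Replicative genes numbered 0 to 9 (mir1301-3p), 0 to 2 (mir550-3p), 0 to 1 (mir1271-5p) and 2 to 4 (Solid). Crosslink genes numbered 0 to 6 (mir1301-3p), 0 to 1 (mir550-3p and mir1180-3p), 2 to 5 (Solid) and 0 to 2 (platforms). Other repair polymerases numbered 0 to 2 (mir1301-3p), 0 to 1 (Solid) and 2 to 3 (platforms), and PCNA ubiquitination genes 0 to 3 (mir1301-3p), 0 to 1 (mir550-3p), 1 to 4 (Solid) and 1 to 2 (platforms). Without replicate 1 of mir1301-3p, 108 of all genes were called higher and 6 lower in its comparison, and 94 and 48 without replicate 2. The counts behind REV1 were 460 reads or more in the 12 libraries of the 6 miRNAs, and 2 libraries per miRNA limit the precision.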
